A study of Homo sapiens with 15 samples.

Results

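The 9 genes described here belong to the Hedgehog signalling pathway and were followed across platinum-sensitive and platinum-resistant ovarian cancer lines. They are the ligand receptor PTCH1, the co-receptors BOC and GAS1, the ligand-binding inhibitor HHIP, the transducer SMO, the cytoplasmic inhibitor SUFU and the transcription factors GLI1, GLI2 and GLI3. All 9 listed genes were found by their Ensembl identifiers among the 16604 genes of the authors' expression table. The list was drawn up with earlier results of the same data known, and GLI3 had stood out there for its higher level in the resistant lines. The difference of GLI3 from the parental line is therefore given as a description with no test. RNA was sequenced from 15 samples of 5 human lines, 3 per line, which the labels call biological replicates. OVCAR4 is a long-used cell line from a high-grade serous ovarian carcinoma, and its platinum-sensitive form is labelled Ovcar4Parental. Ov4Cis was selected from it in cisplatin and Ov4Carbo in carboplatin, both DNA-crosslinking drugs, with the dose raised stepwise until the cells had become resistant. Ov4Carbo4 and Ov4Carbo7 were each expanded from 1 cell of Ov4Carbo, so each of them is 1 clone. All 5 lines were grown in the same serum-containing medium, and the labels give no drug in the medium at harvest. Levels are log2 RPKM, the logarithm to base 2 of reads per kilobase of gene relative to library size, after the authors' normalization for gene length and GC content.

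In the canonical pathway, PTCH1 keeps SMO inactive until a Hedgehog ligand binds it, and BOC and GAS1 help to present the ligand. Active SMO gathers in the primary cilium and frees the GLI proteins from SUFU. Full-length GLI2 acts mainly as an activator, GLI3 is largely processed into a repressor when the pathway is silent, and GLI1 is an activator that is itself a target. PTCH1, HHIP and GLI1 are the targets most often read as a gauge of pathway activity. In ovarian cancer the pathway has been studied both in tumour cells and between tumour cells and stroma. Messenger RNA levels do not show how much GLI protein is processed or where it lies.

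A few facts of the whole series bear on these genes. Sample titles carry numbers in 2 series. Replicate 1 of Ov4Carbo and all samples of both clones belong to one of them, and the other samples to the other. No label describes it as a batch, and outside Ov4Carbo it cannot be told apart from the lines. Replicate 1 of Ov4Carbo also stood apart from the other replicates of its line, with a root-mean-square difference of 0.892 log2 units from the Ov4Carbo7 samples against 1.13 for replicate 2 and 1.07 for replicate 3. Differences from Ov4Carbo that turned on it are given with and without it. PAX8, a lineage factor of serous tumours, lay at a mean log2 RPKM of 5.85 to 6.74 in all 5 lines, whereas WT1, another serous marker, lay between -5.07 and -1.52. Of 10 serous epithelial markers, the number called below the parental level was 7 for Ov4Cis, 2 for Ov4Carbo, 4 for Ov4Carbo4 and 6 for Ov4Carbo7. The shares of all genes called lower were 7.41, 6.93, 7.70 and 7.75% in the same order. The 1 marker called higher was WT1, in Ov4Cis, Ov4Carbo and Ov4Carbo4, by 3.56, 2.38 and 2.81 log2 units. EPCAM, an epithelial adhesion molecule, was at 5.98 in the parental line, 1.17 in Ov4Cis and 3.01 in Ov4Carbo7, and at 5.32 in Ov4Carbo and 5.23 in Ov4Carbo4. The part of this difference in the results for the 9 genes was not tested. Sequencing depth is unknown because read totals were not used here, so precision is judged by the spread between replicates.

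GLI proteins bind the 9-base site GACCACCCA, and PTCH1 is their best known target. This site was searched on both strands in the 250 bases before each transcript start of the RefSeq promoter tables (GRCh38.p14). It occurs in 70 of 34943 such windows, or 0.2%. Of the 9 genes, 7 have at least 1 window, 13 in all, and only 1 of these windows holds the site. GLI1 and GLI3 have no entry. That window belongs to PTCH1, at chr9:95509267-95509516 on the minus strand. It is shown because it is the one place in these windows where the 9 genes carry an exact GLI site. In GENCODE v29 it lies within 6 PTCH1 transcripts and in none of their exons, so it is intronic to the longer forms of the gene. The capitals mark the match, which starts 172 bases before the transcript start and reads as the reverse complement of the site.

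PTCH1: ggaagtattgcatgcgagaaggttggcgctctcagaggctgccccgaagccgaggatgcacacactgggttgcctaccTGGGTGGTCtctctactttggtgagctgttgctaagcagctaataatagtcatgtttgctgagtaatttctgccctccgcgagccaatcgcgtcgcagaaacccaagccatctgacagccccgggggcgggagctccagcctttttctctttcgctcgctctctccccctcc

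None of the 87 other pathway genes with a window held the site. A match describes the letters only, and no binding was measured.

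The 9 genes spanned a wide range of levels. HHIP had a mean log2 RPKM over the 15 samples of -3.20, higher than only 1.93% of all genes, and GLI1 had -2.06, higher than 5.64%. Neither gene reached log2 RPKM 0, which is 1 RPKM, in any sample. SMO was the most abundant of the 9, at 3.64, higher than 64.8% of all genes. HHIP, GLI3 and GLI2 also varied most between lines. Their line means spanned 5.10, 4.92 and 3.68 log2 units, against 0.95 for SMO and 0.92 for SUFU. The spans of HHIP and GLI2 were wider than in 96.4% and 92.8% of all genes. The GLI3 span runs from the parental line to Ov4Carbo4, a contrast by which the gene had been picked out, so no rank is given. Ov4Carbo4 had the highest mean of every one of the 9 genes except HHIP, which was highest in Ov4Cis. For GLI1, PTCH1 and GAS1 the Ov4Carbo4 values overlapped those of the next line. How many of all genes were highest in Ov4Carbo4 was not counted, so this order only describes the 9 genes. No Ov4Carbo4 sample shares a title series with the parental or Ov4Cis samples.

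**Figure D1:**
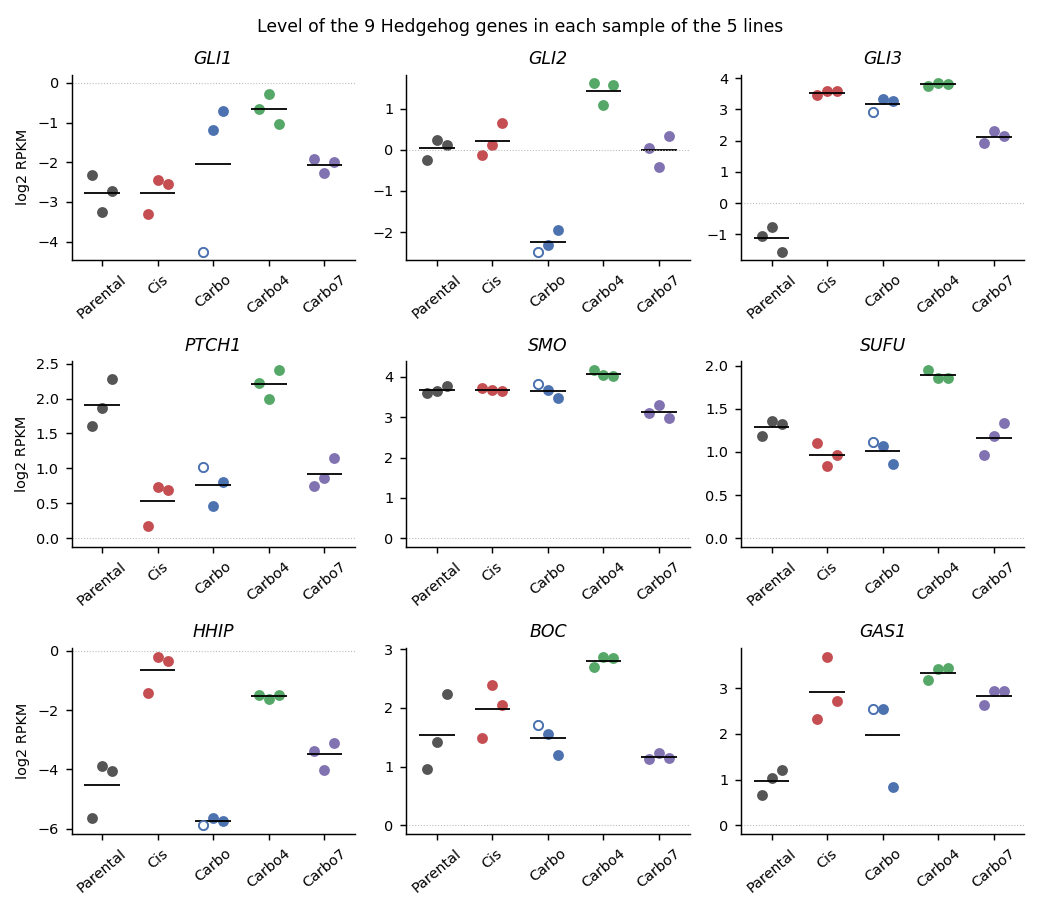
Log2 RPKM of each of the 9 genes (vertical axis, scaled per gene) in the 3 samples of each line. Points are samples, bars are line means, the open circle is replicate 1 of Ov4Carbo and the dotted line is 1 RPKM. GLI3 is low in the parental samples, GLI2 is low in the Ov4Carbo samples, and replicate 1 of Ov4Carbo lies far below the other 2 for GLI1.

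The first question was what had changed in the resistant lines relative to the parental one. Calls required a Benjamini-Hochberg adjusted p under 0.05 in limma together with a log2 fold change of 1 or more in either direction. The 8 genes open to a test here are the 9 without GLI3. In Ov4Cis, 3 of 8 were called, HHIP and GAS1 higher and PTCH1 lower, where 15.9% of all genes were called in either direction, 8.46% higher and 7.41% lower. In Ov4Carbo, 3 of 8 were called, with GLI2, PTCH1 and HHIP all lower, against a background of 12.7%, with 5.76% higher and 6.93% lower. In Ov4Carbo4, 5 of 8 were called and all were higher, namely GLI1, GLI2, HHIP, BOC and GAS1, where the background was 15.1%, with 7.43% higher and 7.70% lower. In Ov4Carbo7 only GAS1 was called, higher, against 17.0%, with 9.26% higher and 7.75% lower. Each clone thus differed from the Ov4Carbo population in which of the genes were called, and the tests of those differences are given further on. These 4 comparisons share the parental samples.

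**Figure D2:**
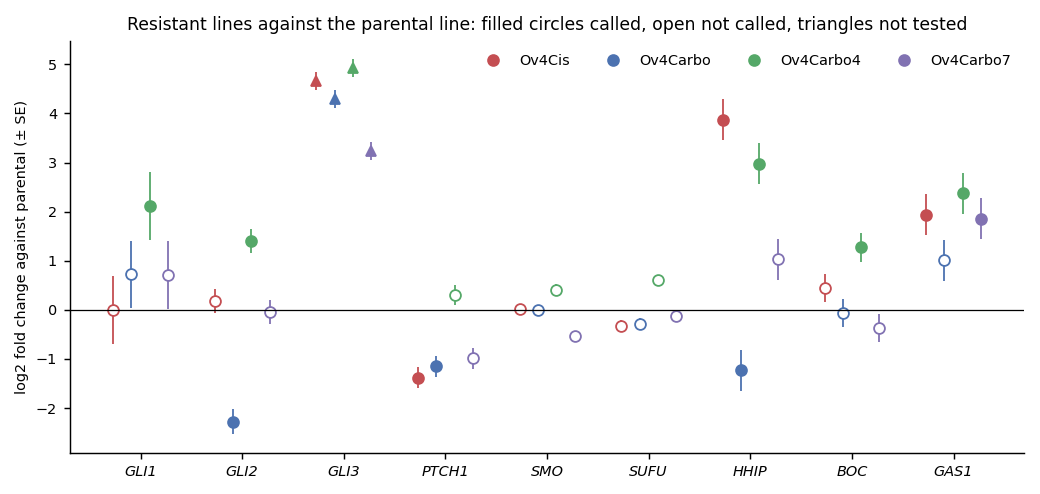
Log2 fold change of each of the 9 genes in each resistant line against the parental line, with its standard error. Filled circles were called, open circles were not, and the triangles of GLI3 were not tested. GLI2 lies below 0 in Ov4Carbo and above 0 in Ov4Carbo4, and PTCH1 lies below 0 in Ov4Cis, Ov4Carbo and Ov4Carbo7.

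PTCH1, the receptor that holds SMO inactive, was lower in both drug-selected populations. Its log2 RPKM was 1.60, 1.86 and 2.28 in the parental samples. It was 0.18, 0.73 and 0.69 in Ov4Cis and 1.02, 0.47 and 0.80 in Ov4Carbo. All 6 of these values lay below the lowest parental one. The fall was 2.60-fold in Ov4Cis (log2 fold change -1.38, SE 0.21, limma adjusted p = 2.44e-04) and 2.22-fold in Ov4Carbo (-1.15, SE 0.21, limma adjusted p = 0.0014). Ov4Carbo7, at 0.75, 0.87 and 1.15, also lay wholly below the parental samples. Its difference of -0.99 (SE 0.21, limma adjusted p = 0.00242) missed the fold limit, and passed it at -1.15, -1.02 or -1.10 without parental replicate 1, parental replicate 2 or Ov4Carbo7 replicate 3. Ov4Carbo4 had 2.22, 2.00 and 2.41, which overlapped the parental values, and its log2 fold change of 0.30 was not called (limma adjusted p = 0.292, 95% interval -0.16 to 0.76). On the log2(RPKM + 1) scale the Ov4Cis and Ov4Carbo changes shrank to -0.96 and -0.82 and missed the fold limit, and without parental replicate 3 the Ov4Carbo change was -0.97.

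BOC and GAS1 are cell-surface proteins that bind Hedgehog ligands together with PTCH1. GAS1 had log2 RPKM values of 0.67, 1.04 and 1.20 in the parental samples. It stood at 2.32, 3.69 and 2.71 in Ov4Cis, at 3.18, 3.41 and 3.44 in Ov4Carbo4 and at 2.63, 2.93 and 2.93 in Ov4Carbo7. All 9 of these values exceeded every parental value. GAS1 rose 3.83-fold in Ov4Cis (log2 fold change 1.94, SE 0.42, limma adjusted p = 0.00311). The rise was 5.18-fold in Ov4Carbo4 (2.37, SE 0.42, limma adjusted p = 7.76e-04) and 3.64-fold in Ov4Carbo7 (1.86, SE 0.42, limma adjusted p = 0.00355). Ov4Carbo itself was split. Its replicates 1 and 2 were both at 2.55, while replicate 3 at 0.83 lay among the parental values. Its log2 fold change of 1.01 was not called (limma adjusted p = 0.0846), and became 1.58 without replicate 3 (limma adjusted p = 0.00325). With a model term for the title series, the GAS1 differences of the clones were 1.51 and 1.00 and neither was called (limma adjusted p = 0.146 and 0.33), while Ov4Cis, in the same title series as the parental line, kept its value.

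BOC was higher than in the parental line in Ov4Carbo4 alone among the called differences. The parental samples were widely spread, at 0.95, 1.42 and 2.24, and the Ov4Carbo4 samples lay close together at 2.70, 2.87 and 2.84, above all of them. The difference was 2.40-fold (log2 fold change 1.27, SE 0.29, limma adjusted p = 0.00375). With the title-series term it was 0.93 and not called (limma adjusted p = 0.206), and without parental replicate 1 it was 0.97. BOC stood at 1.49, 2.39 and 2.05 in Ov4Cis, at 1.70, 1.55 and 1.19 in Ov4Carbo and at 1.12, 1.23 and 1.14 in Ov4Carbo7. All these lines overlapped the parental values. Exons of BOC share 513 bases with CFAP44 on the opposite strand, 4.97% of its exonic length, and whether the counting used strand is not given in the sources used here.

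HHIP, a membrane protein that binds Hedgehog ligands and limits signalling, differed widely on the log scale at levels below 1 RPKM throughout. The parental samples had log2 RPKM values of -5.63, -3.90 and -4.06, which is a mean of 0.0491 RPKM. Ov4Cis had -1.42, -0.20 and -0.35, with a mean of 0.677 ± 0.265 RPKM (SD, n = 3). Ov4Carbo4 had -1.49, -1.64 and -1.50, with a mean of 0.343 ± 0.0191 RPKM (SD, n = 3). Both groups lay wholly above the parental samples. The difference on the log2 RPKM scale was 3.87 in Ov4Cis (SE 0.42, limma adjusted p = 1.48e-05) and 2.98 in Ov4Carbo4 (SE 0.42, limma adjusted p = 1.41e-04). On the log2(RPKM + 1) scale, which gives little weight to changes under 1 RPKM, these became 0.66 and 0.36. Ov4Carbo had the lowest values, -5.89, -5.63 and -5.75, near the bottom of the scale. Its called difference from the parental line (-1.23, limma adjusted p = 0.04) rested on overlapping values, and was lost on leaving out any 1 of the Ov4Carbo samples or parental replicate 2 or 3, and with the title-series term. Ov4Carbo7, at -3.38, -4.01 and -3.10, overlapped the parental samples and was not called (limma adjusted p = 0.0661), though it was without parental replicate 2 or Ov4Carbo7 replicate 2, at 1.35 and 1.29.

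HHIP shares 178 exonic bases with its antisense neighbour HHIP-AS1, 1.47% of its exonic length, and without strand their reads cannot be told apart there. HHIP-AS1 was also higher in Ov4Cis (log2 fold change 2.29, SE 0.63, limma adjusted p = 0.0123) and in Ov4Carbo4 (1.92, SE 0.63, limma adjusted p = 0.0278). CDH5, the cadherin of endothelial junctions, was also higher in both lines, with means of 2.46 in the parental line, 5.13 in Ov4Cis and 4.42 in Ov4Carbo4. Of 6 endothelial markers, 3 were in the table (CDH5, VWF and KDR). Their summed level was 6.37 to 7.40 RPKM in the parental samples, 32.3 to 40.9 in Ov4Cis, 4.27 to 6.06 in Ov4Carbo, 20.7 to 25.2 in Ov4Carbo4 and 8.85 to 10.3 in Ov4Carbo7. CDH5 carried most of that sum, and the 2 others did not follow it. VWF differed from the parental line by -0.35 in Ov4Cis and 0.02 in Ov4Carbo4, neither called, and KDR by 1.00 in Ov4Cis, not called, and by -1.77 in Ov4Carbo4 (limma adjusted p = 0.00526). The part of endothelial-type transcripts in the HHIP result was not tested. All samples come from cell lines, and Ov4Carbo4 is a clone. In bulk RNA, more cells with such transcripts cannot be told apart from more of them per cell.

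SMO, the 7-span membrane protein that passes the signal into the cell, and SUFU, which binds and restrains the GLI proteins, had narrow ranges. None of the 10 comparisons between lines called either of them in limma, although several differences under the fold limit passed the adjusted p. SMO was at 3.60, 3.65 and 3.76 in the parental samples, 3.72, 3.66 and 3.64 in Ov4Cis and 3.81, 3.68 and 3.47 in Ov4Carbo. These 3 lines overlapped. It was at 4.17, 4.04 and 4.02 in Ov4Carbo4 and at 3.11, 3.30 and 2.98 in Ov4Carbo7, wholly above and wholly below those lines. The Ov4Carbo4 difference from the parental line was 0.41, and 0.17 with the title-series term. That of Ov4Carbo7 was -0.54, and -0.78 with the term. The clones differed from each other 1.93-fold (log2 fold change -0.95 in Ov4Carbo7, SE 0.11, limma adjusted p = 1.93e-05), just under the fold limit, and without Ov4Carbo7 replicate 2 the difference was -1.03.

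SUFU was at 1.19, 1.36 and 1.32 in the parental samples and highest in Ov4Carbo4, at 1.95, 1.86 and 1.86. That difference was 1.52-fold (log2 fold change 0.60, SE 0.11, limma adjusted p = 0.00117), and 0.45 with the title-series term (limma adjusted p = 0.119). The other 3 lines had lower means than the parental line. Ov4Cis had 1.10, 0.84 and 0.97, Ov4Carbo 1.11, 1.07 and 0.86, and Ov4Carbo7 0.97, 1.18 and 1.33. The log2 difference was -0.32 in Ov4Cis (SE 0.11, limma adjusted p = 0.0442) and -0.28 in Ov4Carbo (SE 0.11, limma adjusted p = 0.0769).

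GLI3 was higher in every resistant sample than in any parental sample. Its log2 RPKM was -1.04, -0.75 and -1.55 in the parental line and 3.46, 3.59 and 3.58 in Ov4Cis. It was 2.93, 3.33 and 3.28 in Ov4Carbo, 3.75, 3.85 and 3.83 in Ov4Carbo4 and 1.92, 2.32 and 2.14 in Ov4Carbo7. The 5 lines did not overlap at any step of their order, from Ov4Carbo4 down through Ov4Cis, Ov4Carbo and Ov4Carbo7 to the parental line. In RPKM the mean was 0.474 ± 0.126 in the parental line, against 11.7 ± 0.555 in Ov4Cis and 9.13 ± 1.32 in Ov4Carbo (SD, n = 3 each). The clones had 14.0 ± 0.543 in Ov4Carbo4 and 4.39 ± 0.607 in Ov4Carbo7. These means stand at log2 differences from the parental line of 4.66, 4.29, 4.92 and 3.24 in that order, and at 3.11, 2.78, 3.35 and 1.87 on the log2(RPKM + 1) scale. As the rule that chose the gene used this contrast, no test is attached.

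Differences of GLI3 among the resistant lines were not part of that choice, and were tested. Ov4Carbo7 was 2.67-fold below Ov4Cis (log2 fold change of Ov4Cis over Ov4Carbo7 1.42, SE 0.18, limma adjusted p = 6.73e-05). Ov4Cis and Ov4Carbo did not overlap but differed by only 0.36 (SE 0.18, limma adjusted p = 0.138, 95% interval -0.03 to 0.75). Ov4Cis and Ov4Carbo4 differed by -0.27 (SE 0.18, limma adjusted p = 0.257, 95% interval -0.66 to 0.13). GLI3 was thus lower in Ov4Carbo7 than in Ov4Cis, and the differences of Ov4Cis from the other 2 lines did not pass the test.

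GLI2, the main activating GLI factor, did not follow GLI3. It was at -0.25, 0.24 and 0.11 in the parental samples and at -0.14, 0.12 and 0.64 in Ov4Cis, which overlapped (limma adjusted p = 0.624). In Ov4Carbo it was at -2.47, -2.32 and -1.94, below every sample of the other 4 lines, a 4.85-fold fall against the parental line (log2 fold change -2.28, SE 0.25, limma adjusted p = 3.22e-05). In Ov4Carbo4 it was at 1.62, 1.08 and 1.58, above every sample of the other 4 lines, a 2.64-fold rise (1.40, SE 0.25, limma adjusted p = 7.87e-04). Ov4Carbo7 had 0.05, -0.42 and 0.34, which overlapped the parental samples (limma adjusted p = 0.915). The carboplatin population and a clone grown from it thus lay on opposite sides of the parental line. With the title-series term the fall was -2.16 and was still called. The rise was 1.74 with that term, a value that rests on replicate 1 of Ov4Carbo. On the log2(RPKM + 1) scale they were -0.74 and 0.87 and missed the fold limit.

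GLI1, the target and activator, was low in all lines, and its reading in Ov4Carbo depended on 1 sample. The parental samples had -2.31, -3.26 and -2.73, and Ov4Cis had -3.31, -2.45 and -2.54, with the same mean of -2.77. Ov4Carbo had -4.25 in replicate 1 and -1.19 and -0.71 in replicates 2 and 3, so that 1 sample was the lowest of all 15 and the other 2 were above every parental sample. Against the parental line it differed by 0.72 log2 units with all 3 samples (SE 0.69, limma adjusted p = 0.443) and 1.82 without replicate 1 (limma adjusted p = 0.00131). Ov4Carbo4 had -0.65, -0.28 and -1.03, wholly above the parental samples, by 2.12 log2 units (SE 0.69, limma adjusted p = 0.027). This call was lost without parental replicate 2 or 3 or Ov4Carbo4 replicate 1 or 2, with adjusted p between 0.0584 and 0.0896. The wide standard error comes with the spread in Ov4Carbo, since all lines share 1 estimate of the spread. Ov4Carbo7 had -1.91, -2.28 and -1.99, wholly above the parental samples, and was not called (log2 fold change 0.71, SE 0.69, limma adjusted p = 0.439). On the log2(RPKM + 1) scale the Ov4Carbo4 difference was 0.52.

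Put on a linear scale, the makeup of the GLI messages differed between the parental and the resistant lines. The values are per kilobase after the authors' normalization, and how well they compare between the 3 genes was not tested. GLI3 made up 31.8, 31.7 and 21.8% of the summed GLI1, GLI2 and GLI3 RPKM in the parental samples, where GLI2 was above GLI3 in all 3. Its share was 91.6, 90.4 and 87.3% in Ov4Cis and 97.0, 94.0 and 91.8% in Ov4Carbo. It was 78.3, 83.1 and 80.3% in Ov4Carbo4 and 74.4, 84.0 and 74.3% in Ov4Carbo7. GLI3 was above GLI2 in all 12 resistant samples. The excess of GLI3 over GLI2 was 5.23 to 5.65 log2 units in Ov4Carbo, and 2.12 to 2.77 in Ov4Carbo4 and 1.79 to 2.74 in Ov4Carbo7. The summed level was 1.66 ± 0.189 RPKM in the parental line and 17.4 ± 0.290 in Ov4Carbo4, the highest of the lines (SD, n = 3 each). This is a description, as it contains the GLI3 contrast.

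**Figure D3:**
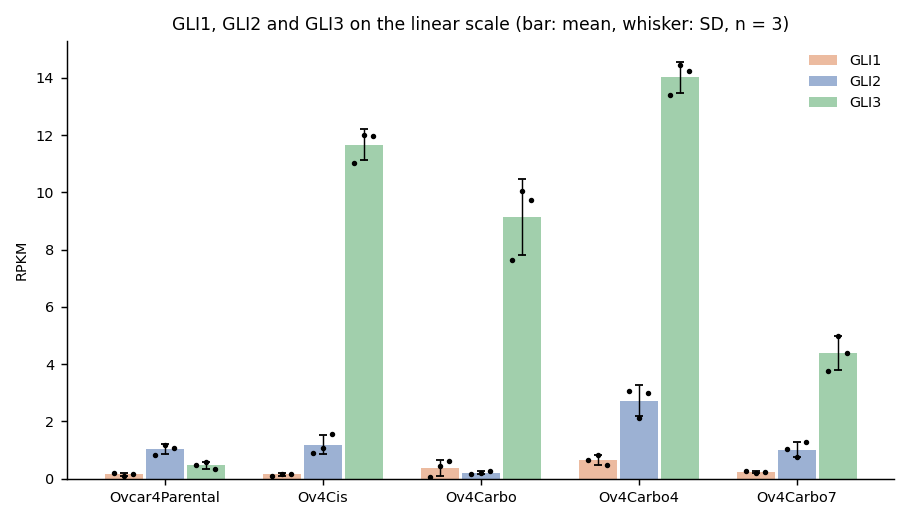
RPKM of GLI1, GLI2 and GLI3 in each line on a linear scale. Bars are means of 3 samples, whiskers are SDs and points are samples. GLI3 is the tallest bar in the 4 resistant lines, at 4.39 to 14.0 RPKM, and GLI2 is the tallest in the parental line, at 1.03 RPKM.

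The second question was how the clones differ from the population they came from. In Ov4Carbo4, 5 of 9 genes were called against Ov4Carbo, and GLI2, PTCH1, HHIP, BOC and GAS1 were all higher, where 14.2% of all genes were called in either direction and 7.58% were higher. GLI2 was 12.8-fold higher (log2 fold change 3.68, SE 0.25, limma adjusted p = 7.61e-07). PTCH1 was 2.73-fold higher (1.45, SE 0.21, limma adjusted p = 2.20e-04), BOC 2.50-fold (1.32, SE 0.29, limma adjusted p = 0.00303) and GAS1 2.58-fold (1.37, SE 0.42, limma adjusted p = 0.0209). The HHIP difference was 4.21 log2 units (SE 0.42, limma adjusted p = 1.47e-05), from 0.0185 to 0.343 RPKM. The GAS1 call was lost without Ov4Carbo replicate 3, at 0.79, and without Ov4Carbo4 replicate 2 or 3, at 1.33 and 1.32. GLI3 was higher by 0.63 and did not reach the fold limit (SE 0.18, limma adjusted p = 0.0144).

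In Ov4Carbo7, 3 of 9 genes were called against Ov4Carbo, with GLI2 and HHIP higher and GLI3 lower, where the background was 13.3%, with 7.72% higher and 5.62% lower. GLI2 was 4.71-fold higher (log2 fold change 2.24, SE 0.25, limma adjusted p = 4.82e-05). HHIP was higher by 2.26 (SE 0.42, limma adjusted p = 0.00137), a difference of only 0.10 on the log2(RPKM + 1) scale. GLI3 was 2.08-fold lower (-1.06, SE 0.18, limma adjusted p = 7.49e-04), and by -0.98 without Ov4Carbo replicate 2 and -0.95 without Ov4Carbo7 replicate 1, under the fold limit. Both clones thus had more GLI2 and HHIP message than their source population.

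Only replicate 1 of Ov4Carbo shares a title series with the clones, and a model with a term for the series compares the clones with that sample alone. The lone sample is assumed to vary like the samples of the other groups, so these p-values do not measure the spread of Ov4Carbo within that series. GLI2 and HHIP remained called in both clones there, with GLI2 higher by 3.90 (limma adjusted p = 2.73e-05) and 2.46 (limma adjusted p = 0.00121). PTCH1 remained called in Ov4Carbo4 at 1.19 (limma adjusted p = 0.0106). BOC at 1.10 (limma adjusted p = 0.0658) and GAS1 at 0.79 (limma adjusted p = 0.333) were not called in Ov4Carbo4, nor was GLI3 at -0.81 in Ov4Carbo7 (limma adjusted p = 0.0386). GLI1 became called in both clones, at 3.60 (limma adjusted p = 1.16e-04) and 2.18 (limma adjusted p = 0.0048), against 1.40 (limma adjusted p = 0.119) and -0.02 (limma adjusted p = 0.986) with all 3 Ov4Carbo samples. Without replicate 1 the GLI1 difference was 0.30 in Ov4Carbo4 (limma adjusted p = 0.479) and -1.12 in Ov4Carbo7 (limma adjusted p = 0.0166), so in Ov4Carbo7 its direction depended on that sample. Without Ov4Carbo replicate 3 it was 2.07 in Ov4Carbo4 (limma adjusted p = 0.0295). GLI2, HHIP, PTCH1, BOC and GAS1 remained called in Ov4Carbo4 without replicate 1, at 3.56, 4.15, 1.58, 1.43 and 1.65, and GLI2, HHIP and GLI3 in Ov4Carbo7, at 2.12, 2.19 and -1.18. Against the parental line the same term gave GLI1 differences of 1.82 in Ov4Carbo, 5.42 in Ov4Carbo4 and 4.01 in Ov4Carbo7. PTCH1 differed by -1.38 in Ov4Carbo7. No parental sample shares the clones' title series, so the clone values carry the gap between Ov4Carbo replicate 1 and the other replicates of its line. For GLI1 that gap was -3.30, and without the term the clone differences from the parental line were 2.12 and 0.71. The clone values with the term thus rest on 1 sample.

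**Figure D4:**
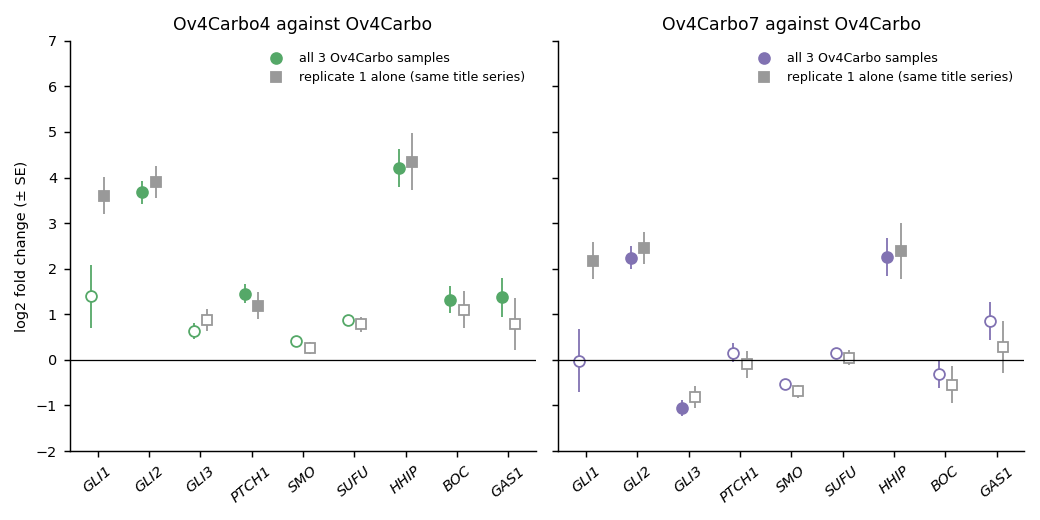
Log2 fold change of each of the 9 genes in Ov4Carbo4 (left) and Ov4Carbo7 (right) against Ov4Carbo, with its standard error. Circles use all 3 Ov4Carbo samples, squares use replicate 1 alone through the title-series term, and filled symbols were called. GLI2 and HHIP are filled in both panels for both symbols, and GLI1 is filled for the squares only.

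The clones were also compared with each other, and all 6 of their samples come from the same title series. In Ov4Carbo7, 5 of 9 genes were called and all were lower than in Ov4Carbo4, namely GLI2, GLI3, PTCH1, HHIP and BOC, where 20.9% of all genes were called in either direction and 9.86% were lower. GLI3 was 3.22-fold lower (log2 fold change -1.69, SE 0.18, limma adjusted p = 1.03e-05) and GLI2 2.71-fold lower (-1.44, SE 0.25, limma adjusted p = 4.14e-04). BOC was 3.12-fold lower (-1.64, SE 0.29, limma adjusted p = 4.27e-04) and PTCH1 2.44-fold lower (-1.29, SE 0.21, limma adjusted p = 2.80e-04). HHIP had a log2 difference of -1.95 (SE 0.42, limma adjusted p = 0.00194). GLI1, SMO, SUFU and GAS1 also had lower means in Ov4Carbo7 without being called. GLI1 was lower by 1.41 and not called with all lines in the model (limma adjusted p = 0.104). When the spread came from the clones alone, without Ov4Carbo, the same difference was called (limma adjusted p = 0.00142). GAS1, the other co-receptor, differed by -0.51 (limma adjusted p = 0.335).

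The third question was whether the cisplatin-selected population differs from the carboplatin-derived lines. Against Ov4Carbo, 2 of 9 genes were called, both higher in Ov4Cis, where 13.8% of all genes were called and 7.88% were higher. GLI2 was 5.48-fold higher in Ov4Cis (log2 fold change 2.45, SE 0.25, limma adjusted p = 1.28e-05) and HHIP was higher by 5.10 (SE 0.42, limma adjusted p = 2.16e-06). Without Ov4Carbo replicate 1, which leaves samples of 1 title series, 4 genes were called, as GLI1 was lower in Ov4Cis by 1.82 (limma adjusted p = 0.00111) and GAS1 higher by 1.22 (limma adjusted p = 0.0486). Against Ov4Carbo4, 3 of 9 genes were called and all were lower in Ov4Cis, where the background was 16.8%, with 7.72% lower. PTCH1 was lower by 1.68 (SE 0.21, limma adjusted p = 4.78e-05), GLI2 by 1.22 (SE 0.25, limma adjusted p = 0.00175) and GLI1 by 2.12 (SE 0.69, limma adjusted p = 0.0247). The GLI1 call was lost without Ov4Cis replicate 1 or Ov4Carbo4 replicate 1 or 2 (limma adjusted p between 0.058 and 0.0832). Against Ov4Carbo7, 2 of 9 were called, GLI3 and HHIP, both higher in Ov4Cis, where the background was 14.7%, with 7.46% higher. HHIP differed there by 2.84 (SE 0.42, limma adjusted p = 2.03e-04). PTCH1 and SMO did not separate Ov4Cis from Ov4Carbo, with 95% intervals of the log2 difference from -0.69 to 0.23 and from -0.22 to 0.26.

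The other genes of the pathway were read from lists written from general knowledge, with earlier results of these data known. Their counts against the parental line stand beside 8.46% of all genes called higher and 7.41% lower in Ov4Cis, 5.76% and 6.93% in Ov4Carbo, 7.43% and 7.70% in Ov4Carbo4, and 9.26% and 7.75% in Ov4Carbo7. The counts were not tested as groups. Of 9 genes for ligands and their release, SHH, IHH, DHH and SCUBE2 were not among the genes of the table, so no ligand level is given. The 5 others were HHAT, the acyltransferase that lipidates the ligand, DISP1 and DISP2, which release it, and SCUBE1 and SCUBE3, which carry it. Against the parental line 2 were called higher in Ov4Cis and 1 in Ov4Carbo4, 2 lower in Ov4Carbo, and 1 in each direction in Ov4Carbo7. SCUBE3 fell from 2.10 ± 0.32 in the parental line to -0.68 ± 0.48 in Ov4Carbo7 (log2 RPKM, SD, n = 3 each; limma adjusted p = 1.65e-05). Of 11 further receptor and co-receptor genes, 7 were in the table. None was called in Ov4Cis, 2 were lower in Ov4Carbo, 1 was higher in Ov4Carbo4 and 1 lower in Ov4Carbo7.

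The counts for the intracellular machinery stand beside the shares of all genes called in either direction, 15.9% for Ov4Cis, 12.7% for Ov4Carbo, 15.1% for Ov4Carbo4 and 17.0% for Ov4Carbo7. Of 31 genes for GLI processing, all in the table, Ov4Cis had 1 called higher and 1 lower, Ov4Carbo had 0 called, Ov4Carbo4 had 1 higher and Ov4Carbo7 had 1 lower, with median log2 fold changes of 0.03, 0.01, 0.14 and -0.19, against 0.04, 0.03, 0.07 and 0.02 over all genes. The 1 called in Ov4Carbo4 was KIF7, a ciliary kinesin of the pathway, at 1.14 (limma adjusted p = 3.00e-05), named after its value was seen. Of 43 genes of the primary cilium, 41 were in the table. Of these, 1 was higher and 1 lower in Ov4Cis, 4 were higher in Ov4Carbo, 1 was higher in Ov4Carbo4, and 1 was higher and 2 lower in Ov4Carbo7. EVC, a membrane protein of the ciliary base that acts downstream of SMO, went from 0.93 ± 0.36 in the parental line to 3.83 ± 0.08 in Ov4Carbo7 (log2 RPKM, SD, n = 3 each), which is 2.90 log2 units higher (limma adjusted p = 1.01e-06).

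Genes reported as GLI targets moved in both directions. Of 31, 22 were in the table. In Ov4Cis 4 were called higher and 5 lower, in Ov4Carbo 2 and 7, in Ov4Carbo4 7 and 5, and in Ov4Carbo7 3 and 6. As shares of all genes, 8.46% were higher and 7.41% lower in Ov4Cis, 5.76% and 6.93% in Ov4Carbo, 7.43% and 7.70% in Ov4Carbo4, and 9.26% and 7.75% in Ov4Carbo7. The medians of the list were -0.01, -0.44, 0.05 and -0.49 in the same order, against 0.04, 0.03, 0.07 and 0.02 over all genes. KRT17, a keratin of stressed epithelia, was lower in all 4 resistant lines. It went from 4.26 ± 0.51 in the parental line to -4.84 ± 1.15 in Ov4Cis (log2 RPKM, SD, n = 3 each). Ov4Carbo had -1.07 ± 0.77, Ov4Carbo4 -0.63 ± 0.65 and Ov4Carbo7 -1.57 ± 0.34. In the order of these 4 lines, the falls were -4.28, -3.75, -3.60 and -3.91 after adding 1 to the RPKM. SFRP1, a secreted Wnt antagonist, was at 3.25 ± 0.45 in the parental line and between -1.14 and 1.02 in the resistant lines (limma adjusted p between 2.90e-07 and 5.41e-05). IL1R2, a decoy receptor for interleukin 1, was at 4.26 ± 0.69 in the parental line and between -1.59 and 2.72 in the resistant lines (limma adjusted p between 9.25e-08 and 0.00207). GREM1, a BMP antagonist, fell from 3.45 ± 0.99 to -2.99 ± 1.81 in Ov4Carbo and to -0.53 ± 0.47 in Ov4Carbo4 (limma adjusted p = 7.10e-05 and 0.00155). The targets used as a gauge of activity did not move as one in Ov4Cis, where PTCH1 was lower and HHIP, below 1 RPKM, was higher. In Ov4Carbo both were called lower, HHIP with overlapping values. GLI1 differed there by 0.72, not called, and by 1.82 without Ov4Carbo replicate 1 (limma adjusted p = 0.00131). In Ov4Carbo7 PTCH1, HHIP and GLI1 differed by -0.99, 1.03 and 0.71, and none was called. In Ov4Carbo4 GLI1 and HHIP were called higher, and PTCH1 was not called.

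Of 9 zinc finger factors related to the GLI family, 7 were in the table. In Ov4Cis 4 were higher and 1 lower, in Ov4Carbo none was called, in Ov4Carbo4 3 were higher and in Ov4Carbo7 4 were higher. Over all genes, 8.46, 5.76, 7.43 and 9.26% were higher in these lines. Those called in Ov4Carbo4 were GLIS1, ZIC2 and ZIC5, at means of -3.10, -4.25 and -5.31. Their changes were 0.14, 0.05 and 0.03 after adding 1 to the RPKM, and the ZIC5 values overlapped the parental ones. In Ov4Carbo7 the same genes were called at -1.37, -0.77 and -2.38, with changes of 0.46, 0.65 and 0.25 on that scale. The medians of the 7 were 1.43, 0.36, 0.57 and 1.10, against 0.04, 0.03, 0.07 and 0.02 over all genes. ZIC2, which shares the zinc finger domain with the GLI proteins, went from -5.97 ± 0.35 in the parental line to 0.51 ± 0.34 in Ov4Cis (log2 RPKM, SD, n = 3 each; limma adjusted p = 3.38e-08). The change was 1.26 after adding 1 to the RPKM.

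**Figure D5:**
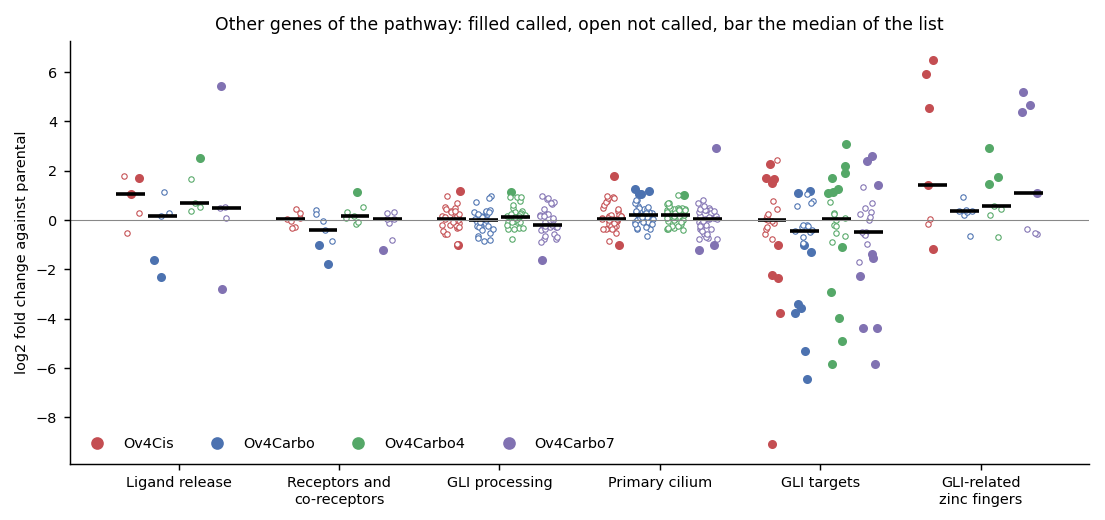
Log2 fold change against the parental line of every gene in the table of 6 lists of pathway genes, by resistant line. Filled points were called, open points were not, and bars are list medians. The medians of the GLI processing and cilium lists lie close to 0, and the target list spreads to -9.10, the KRT17 value in Ov4Cis.

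For the 5 genes whose line means span at least 2 log2 units, the genes with the most similar pattern were found by Pearson correlation over the 15 samples, among 12768 genes. The 15 points are 5 lines of 3 samples each, so the values only describe. GLI3 was most like EN2, SPARC and CECR2, with r of 0.987, 0.984 and 0.981. EN2, a homeobox factor, went from -6.33 ± 0.37 in the parental line to 3.06 ± 0.14 in Ov4Carbo4, and SPARC, a matrix protein, from 1.31 ± 0.73 to 6.92 ± 0.19 (log2 RPKM, SD, n = 3 each). GLI2 was most like FOXK1, PPP4R3A and GJC1, at 0.964, 0.943 and 0.937, although FOXK1 itself spanned only 3.03 to 3.70. HHIP was most like PIK3R3, CDH5 and EEIG2, at 0.968, 0.960 and 0.951. GAS1 was most like ACAP3, MAP1B and TOP2A, at 0.939, 0.919 and 0.913. GLI1 was most like HOOK3, ABITRAM and ZCCHC3, at 0.890, 0.885 and 0.881, and HOOK3 spanned only 3.41 to 3.79.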

How the data were processed

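The authors deposited 1 table of log2 RPKM values, which its name says went through cqn, a conditional quantile normalization that corrects for the length and GC content of genes. BWA 0.7.15-r1140, HTSeq, hg19 and GRCh37 are listed in the submitters' processing notes, with no role or order. RNA was captured by polyA, per the labels' protocols. The ranked upper values were nearly alike in all samples (largest SD 5.18e-04), so differences in total RNA between lines cannot be seen. The lowest value per sample was -8.18 to -7.68. Symbols matched 15585 of 16604 genes, and exon overlaps and lengths came from GENCODE v29 (GRCh38). A model with a coefficient per line was fitted by limma (version 3.58.1, R 4.3.3, functions lmFit and eBayes, two-sided) to all genes and samples, with Benjamini-Hochberg adjustment over all genes in each of 10 contrasts. The contrasts share samples. The model was checked on simulated data. The members and lists were chosen with earlier results of these data known. From the lists, the text names the 4 genes with the largest change in each contrast with the parental line among those called, without overlapping values and with a higher mean of at least log2 RPKM 0. For likeness it names the 3 genes with the highest r among those with a symbol and a highest line mean of at least log2 RPKM 1. Other genes are named in support of a member or a list count. Alternatives were a variance trend, quantile normalization, median centring, a filter at mean log2 RPKM 1, log2(RPKM + 1), log2(RPKM + 0.1), only the lines compared, a replicate block, a title-series term, an adjusted p under 0.01 and leaving out each sample.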

Additional observations from a re-analysis of the deposited data

Results flagged for a closer look

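GLI2 differed in direction between 2 lines under the same contrast. All 3 Ov4Carbo4 samples lay above every parental sample and all 3 Ov4Carbo samples lay below every one. The direct comparison of Ov4Carbo4 with Ov4Carbo gave a log2 difference of 3.68 (SE 0.25, 95% interval from 3.13, limma adjusted p = 7.61e-07), and 3.56 without Ov4Carbo replicate 1 (limma adjusted p = 5.74e-06). Against replicate 1 alone it was 3.90. Ov4Carbo4 is 1 clone of that population. The other clone measured, Ov4Carbo7, had a log2 difference of -1.44 from Ov4Carbo4 (limma adjusted p = 4.14e-04). Whether further clones share either level was not measured here.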

How the results depend on the processing

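Of the 32 called differences of the 9 genes, none changed sign under any alternative run. Of their 303 values under settings other than leaving out a sample, 267 kept the call and 36 lost it, 20 of these on the log2(RPKM + 1) scale and 7 with the title-series term. Of the 192 values that each left out a sample, 173 kept the call and 19 lost it. Of 39 uncalled differences that were at least 0.25 or were called under an alternative, 3 changed sign with the title-series term: PTCH1 in Ov4Carbo4 against the parental line became -0.09, GAS1 in Ov4Cis against Ov4Carbo4 0.42 and GLI1 in Ov4Carbo7 against Ov4Carbo 2.18. The last of these, -0.02 with all samples, ranged from -1.12 to 0.65 when 1 sample was left out, and was 0.41 without Ov4Carbo replicate 2, 0.65 without replicate 3 and 0.09 without Ov4Carbo7 replicate 2. The number of the genes called against the parental line on the log2(RPKM + 1) scale was 1 in Ov4Cis, 0 in Ov4Carbo and 2 in Ov4Carbo4. On that scale it was 0 for Ov4Carbo7 against Ov4Carbo, 2 for Ov4Carbo7 against Ov4Carbo4, 0 for Ov4Cis against Ov4Carbo, 1 for Ov4Cis against Ov4Carbo4 and 1 for Ov4Cis against Ov4Carbo7. The background fell too. In the order given, it was 7.58, 4.76 and 6.34% against the parental line and 4.96, 10.5, 5.77, 7.69 and 6.65% for the others. With only genes of a mean log2 RPKM of 1 or more, GLI1, GLI2 and HHIP were left out. The count was then 1 in Ov4Carbo and 2 in Ov4Carbo4 against the parental line. It was 3 for Ov4Carbo4 and 1 for Ov4Carbo7 against Ov4Carbo, and 3 between the clones. For Ov4Cis it was 0, 1 and 1 against Ov4Carbo, Ov4Carbo4 and Ov4Carbo7. The background with that filter was 6.06, 8.07, 8.27, 7.07, 13.7, 6.98, 9.94 and 8.65% in the same order. With the title-series term the count was 4 for Ov4Cis against Ov4Carbo, against a background of 16.7%. Counts that involve the clones rest, with that term, on replicate 1 of Ov4Carbo and are left out. The cause of these shifts was not tested beyond the fewer genes kept by the filter. Leaving out 1 sample at a time gave 3 to 3 called in Ov4Cis, 1 to 3 in Ov4Carbo, 4 to 5 in Ov4Carbo4 and 1 to 3 in Ov4Carbo7 against the parental line. It gave 4 to 5 for Ov4Carbo4 and 2 to 4 for Ov4Carbo7 against Ov4Carbo, 5 to 6 between the clones, and 2 to 4, 2 to 4 and 2 to 3 for Ov4Cis against Ov4Carbo, Ov4Carbo4 and Ov4Carbo7. The samples that moved a count by over 1.5 times were parental replicate 3 for Ov4Carbo (1 without it), parental replicates 1 and 2 (2 and 3) and Ov4Carbo7 replicates 2 and 3 (2 each) for Ov4Carbo7, and Ov4Carbo replicate 1 for Ov4Cis against Ov4Carbo (4). The replicate numbers do not pair the samples, since only 11 of 30 same-number correlations were over 0.1 (range -0.394 to 0.437) and 4 of 15 samples correlated best with their own number. With the replicate number as a block, the counts were 3, 3, 5 and 1 against the parental line, 5 and 3 against Ov4Carbo, 5 between the clones, and 2, 3 and 2 for Ov4Cis, as without it. Of the 3 genes named as most like each of GLI1, GLI2, GLI3, HHIP and GAS1, correlation over the 5 line means kept 0, 1, 1, 1 and 0, and a highest line mean of at least log2 RPKM 0 kept 3, 2, 3, 2 and 3. GLI1 and HHIP stayed below 1 RPKM, and their log2 differences shrank on the log2(RPKM + 1) scale. For HHIP in Ov4Cis against Ov4Carbo, 5.10 became 0.71.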
